A study of Xenopus laevis with 11 samples.

Results

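DNA methylation enzymes were examined in the accessible chromatin of stage 9 animal caps of *Xenopus laevis*, the pluripotent ectoderm explanted from the blastula. Members were chosen by gene name, with earlier results of these data known. They are each L and S copy of dnmt1, dnmt3a, tet2 and tet3 in the RefSeq gene table of the v10.1 genome. Every ATAC-seq peak whose summit lay inside the gene or within 50 kb of either gene end was taken with them. The table held 6 of the 8 named copies. dnmt3a was not found in it under that symbol and was not analysed here. The 6 copies are 6 of 34461 protein-coding genes on the 18 chromosomes, and 49 of the 58223 peaks belonged to them.

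ATAC-seq uses the transposase Tn5 to cut and tag DNA that is free of nucleosomes. The labels name 11 libraries of wild-type embryos of strain Xla.NXR-WTNXR, with 2 caps in each reaction. Of these, 6 were from stage 9 (4 replicates) and 5 from stage 8 (3 replicates). Replicates 1 and 2 of each stage appear as 2 entries each, without and with size selection of the fragments. Per the paper, these are the same libraries, sequenced again after size selection. The other replicates were sequenced only as size-selected short fragments. The data used here are 1 peak list that the authors called on all stage 9 libraries pooled, so no value has a spread between replicates, no test was run and stages were not compared. *X. laevis* is an allotetraploid whose L and S subgenomes come from different parental species, and the study asks how these subgenomes take part in activation of the embryonic genome. Corresponding copies of a gene on L and S are its homeologs.

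Methylation of cytosine in CpG dinucleotides is copied onto newly made DNA by DNMT1 and is placed on unmethylated DNA by DNMT3 enzymes. TET enzymes are dioxygenases that oxidise methylcytosine, which is a first step towards its removal. In *Xenopus* embryos the genome remains heavily methylated through the blastula, loss of maternal Dnmt1 is known to let genes be transcribed too early, and Tet3 is known for its part in eye and neural development. These statements are background and not results of these data.

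For each peak the list gives a fold enrichment, which is the fragment coverage at the summit over the local background of the control. The number of fragments at each summit was recovered from this value and the deposited p-value. The median summit of the whole list had 9 fragments and none had fewer than 5, so weaker accessibility would have escaped detection and the lack of a peak does not show closed chromatin. Poisson intervals are given at 95% and cover counting error only. As a check, 26 of 27 copies of animal cap ectoderm genes had a peak inside or within 10 kb. This was so for 4 of 20 copies of genes for late organs and 65.7% of all protein-coding genes. No genes of other blastula regions were listed, so the check does not tell the animal cap from them.

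Peaks were many around both copies of dnmt1 and tet3 and few around tet2. tet3.L had 16 peaks, dnmt1.S 13, dnmt1.L 11, tet3.S 8, tet2.S 1 and tet2.L 0. The median of the 6 copies was 9.5 peaks and the median of all protein-coding genes was 3. Of all protein-coding genes, 95.7% had fewer peaks than tet3.L, 92.5% fewer than dnmt1.S, 89.0% fewer than dnmt1.L and 80.3% fewer than tet3.S. Thus the copies of dnmt1 and tet3 lay in the upper part of the distribution, and those of tet2 lay at its low end.

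A longer gene has a wider window, and the order changed somewhat per length. dnmt1.S had 9.29 peaks per 100 kb of window, tet3.L 8.93, dnmt1.L 7.71, tet3.S 5.00 and tet2.S 0.671, against a median of 2.51 over all protein-coding genes. In all, 5 of the 6 copies had a peak inside or within 50 kb, against 85.0% of protein-coding genes, and for 3 of 6 a summit lay within 1 kb of a gene end, against 47.8%. Both counts are near the background. The copies of dnmt1 and tet3 lay high by how many peaks their windows held, and those of tet2 lay low.

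**Figure D1:**
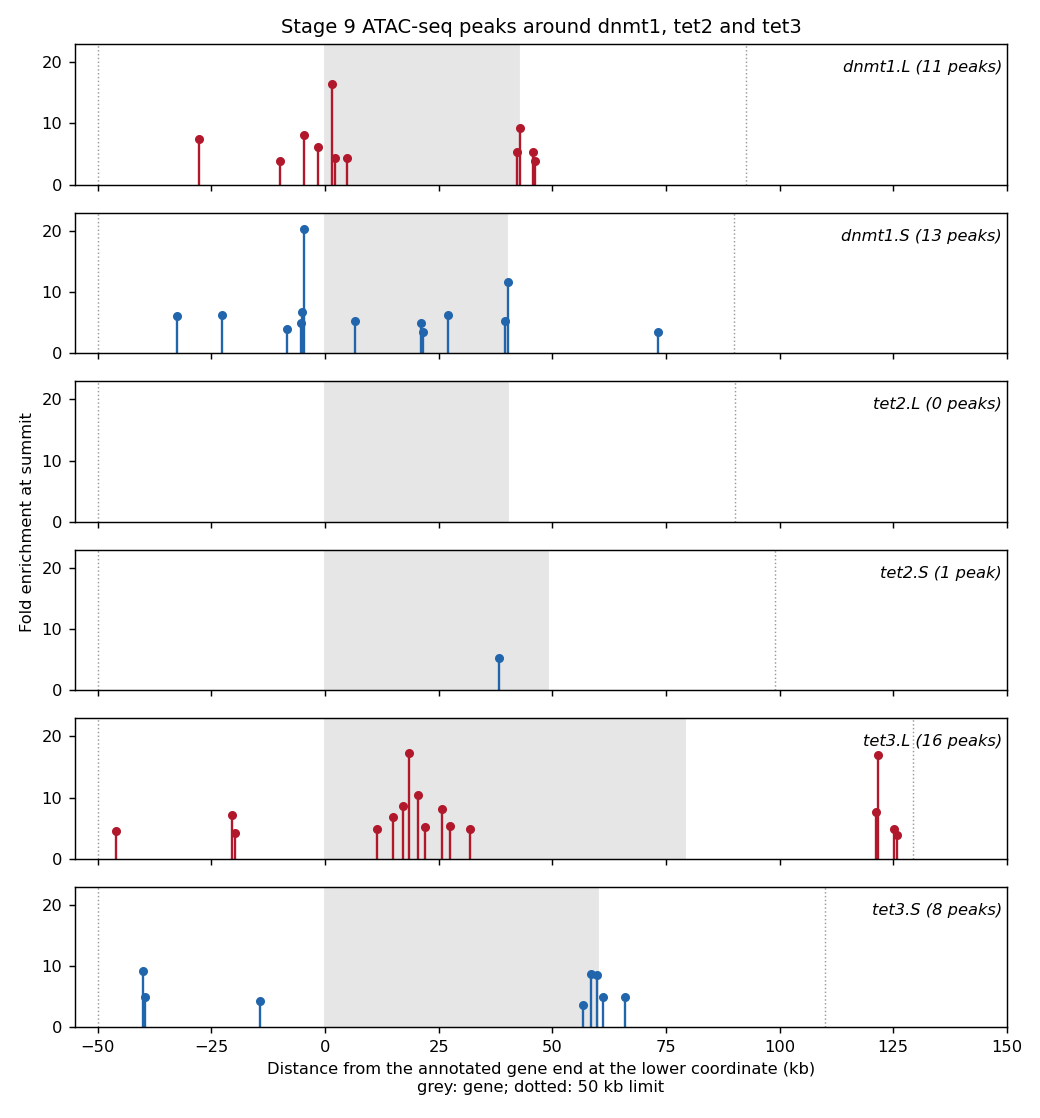
Peaks around each copy, as fold enrichment at the summit (vertical axis) against distance in kb from the gene end at the lower coordinate, with the gene in grey and the 50 kb limits dotted. Peaks of dnmt1.L gather near both gene ends, those inside tet3.L and tet3.S gather in 1 stretch of the gene, and tet2.L has 0 peaks and tet2.S 1.

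**Figure D2:**
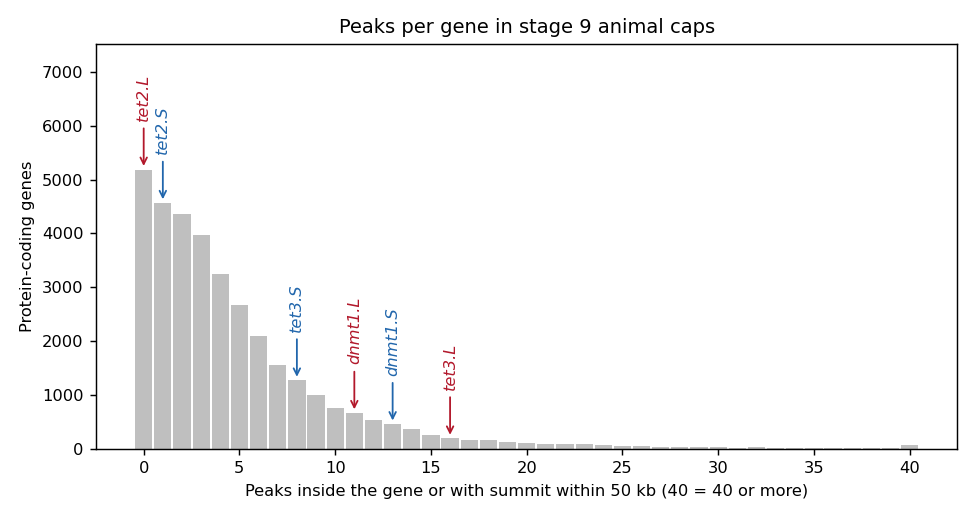
Number of protein-coding genes (vertical axis) by the number of peaks inside the gene or within 50 kb (horizontal axis), with arrows at the 6 copies. tet3.L, with 16 peaks, has more than 95.7% of genes, and tet2.L, with 0, is among the 15.0% of genes that have none.

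The peaks themselves were of ordinary strength. Their median fold enrichment was 5.34 and their median coverage 9 fragments, against 5.51 and 9 over the whole list, and 12 of the 49 had a −log10 q of at least 10, against 20.4% of all peaks. Fold enrichment ran from 3.40 to 20.4. Of the 49 peaks, 22 lay inside a member gene and 27 outside, and 12 of those outside were within 1 kb of an end of a neighbouring gene. Another gene was nearer than the member for 20 of the 49, so the window of 50 kb describes a neighbourhood. The outermost peak counted lay 46.5 kb from tet3.L, with 3.86-fold enrichment and 6 fragments, and the nearest ones left out lay 51.2 kb from tet3.S, 52.4 kb from dnmt1.L and 52.8 kb from tet3.L, with 12, 10 and 17 fragments.

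dnmt1, which encodes the maintenance methyltransferase, was alike in its L and S copies at 1 of its ends. dnmt1.L (gene 399257) lies at 3L:146626799 to 146669389 and dnmt1.S (gene 100036795) at 3S:122373204 to 122413144, and both stand between eif3g, which encodes a subunit of a translation initiation factor, and s1pr2, which encodes a receptor for sphingosine 1-phosphate. At the end nearer s1pr2 each copy had 1 weaker peak just inside the gene and 1 stronger peak just outside it. The table used here gives no strand, so which end is the start of transcription was not determined.

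At dnmt1.L the inner of these peaks, at 3L:146668992 to 146669204, had its summit 360 bp inside the gene with 5.39-fold enrichment and 9 fragments (4.12 to 17.1). The outer peak, at 3L:146669324 to 146669779, had its summit 188 bp outside with 9.23-fold enrichment and 16 fragments (9.15 to 26.0). At dnmt1.S the inner peak, at 3S:122412810 to 122413008, lay 262 bp inside with 5.34-fold enrichment and 10 fragments (4.80 to 18.4). The outer peak, at 3S:122413223 to 122413585, lay 283 bp outside with 11.7-fold enrichment and 18 fragments (10.7 to 28.4). The counting intervals of the copies overlap for the inner and for the outer peak. An end peak at both copies was found in 52.9% of the 7759 homeolog pairs, so this state alone is common.

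The other end of dnmt1 differed between the copies. The strongest peak of dnmt1.L, at 3L:146628125 to 146628559, had 16.4-fold enrichment and 26 fragments (17.0 to 38.1). Its summit lay 1615 bp inside the gene, also within the lncRNA gene LOC121401628, which overlaps this end of dnmt1.L. A pair of weaker peaks lay nearby inside the gene, 2265 bp and 4874 bp from the same end, with 7 and 6 fragments. dnmt1.S had no peak within 5 kb inside that end, and its nearest inner peak lay 6609 bp in with 8 fragments (3.45 to 15.8).

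The strongest peak in the window of dnmt1.S was instead at the end of its neighbour. It lay at 3S:122368331 to 122368596, 40 bp outside eif3g.S and 4750 bp from dnmt1.S, and with 20.4-fold enrichment and 41 fragments (29.4 to 55.6) it was the strongest of all 49. The peak at the same end of the neighbour at L, 131 bp outside eif3g.L, had 8.18-fold enrichment and 15 fragments (8.40 to 24.7). These intervals do not overlap, but the S peak was picked as the strongest, which widens the difference. The places were not aligned by sequence, and whether the difference holds in the single libraries was not tested. Within 1 kb of its ends eif3g.L had 1 peak and eif3g.S had 3.

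Within the body of the gene the called peaks of the copies differed again. Between its end groups dnmt1.L had a stretch of 37.4 kb with no peak, a length that 29.1% of distances between adjacent summits reach. In dnmt1.S there were peaks 18832 bp, 18335 bp and 12843 bp from the end nearer s1pr2, with 7, 6 and 10 fragments. These are weak peaks, of 4.92-fold, 3.40-fold and 6.23-fold enrichment. As called peaks began at 5 fragments, the copies are not shown to differ in accessibility there. Just beyond the end nearer s1pr2, dnmt1.L had further peaks 3139 bp and 3668 bp outside, with 10 and 7 fragments, and the next peak of dnmt1.S on that side lay 33272 bp away inside s1pr2.S with 8.

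**Figure D3:**
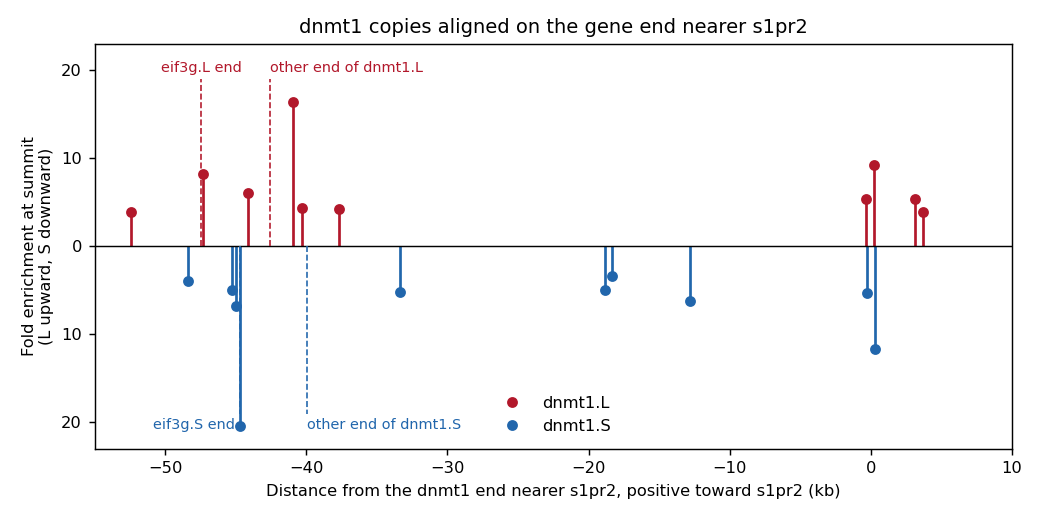
Peaks of dnmt1.L (upward, red) and dnmt1.S (downward, blue) as fold enrichment against distance in kb from the gene end nearer s1pr2. Paired peaks stand at that end in both copies, and at the far side the strongest peak is inside dnmt1.L (16.4-fold) but at the end of eif3g.S (20.4-fold).

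For dnmt1 as a whole the number of peaks did not favour a copy. There were 11 peaks at L and 13 at S, and a gap of at least this size was found in 57.9% of homeolog pairs. Within 10 kb there were 10 at L and 10 at S. The direction turned when only peaks nearest to dnmt1 were counted, with 8 at L and 6 at S, and with 3 and 2 at the stricter limit of −log10 q.

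tet3, which encodes a dioxygenase that can carry a CXXC domain for binding CpG, had 9 of 16 peaks inside the gene at L and 3 of 8 at S. tet3.L (gene 108711530) lies at 3L:128305149 to 128384417 and tet3.S (gene 108712780) at 3S:32572453 to 32632413. The 9 peaks inside tet3.L all lay between 11421 bp and 31943 bp from the end nearer dusp11, which encodes an RNA phosphatase. Its strongest peak, at 3L:128323477 to 128323939, had 17.4-fold enrichment and 38 fragments (26.9 to 52.2) and lay 18537 bp inside the gene. Neither end of tet3.L had a summit within 1 kb.

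tet3.S had 1 end peak. It lay at 3S:32632082 to 32632425, with its summit 157 bp inside the end nearer dusp11, and had 8.61-fold enrichment and 13 fragments (6.92 to 22.2). The next peak, at 3S:32630796 to 32631171, lay 1474 bp inside and had 8.73-fold enrichment and 17 fragments (9.90 to 27.2). The highest fold enrichment in the window of tet3.S, 9.22 with 14 fragments, was at 3S:32532422 to 32532609, 67 bp outside the uncharacterised gene LOC108712777. An end peak at the S copy alone was found in 8.69% of homeolog pairs.

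The annotated ends of the tet3 copies lie at unlike distances from a tRNA gene inside them. The L copy is annotated as 79269 bp long and the S copy as 59961 bp, from 8 and 7 predicted transcripts with none curated. A gene for glutamate tRNA, trnae-uuc, is annotated inside each copy, at 3L:128325539 to 128325610 and 3S:32629206 to 32629277, and served as a common landmark. This landmark was chosen after the peaks had been seen, and the sequences around it were not aligned. It lies 20.4 kb from the end nearer dusp11 in tet3.L but 3.17 kb from that end in tet3.S, and the copies run in opposite directions along their chromosomes. From that end to dusp11 the distance was 5.59 kb at L and 34.6 kb at S. Which places of the copies correspond was thus not determined.

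Measured from the tRNA gene, some peaks of the copies stood at similar distances. On the side towards dusp11, tet3.L had summits at 1888, 3238, 5446 and 9004 bp, and tet3.S had summits at 1698, 3015, 4365 and 9271 bp. Those at 5446 bp and 4365 bp were not close. How often unrelated peaks would stand as near to each other as the rest was not tested. The strongest peak of tet3.L and the peak of tet3.S with most fragments thus both lay a little under 2 kb from the tRNA gene, with 38 fragments (26.9 to 52.2) at L and 17 (9.90 to 27.2) at S. The peaks at 3238 bp in tet3.L and 3015 bp in tet3.S had 14 and 13 fragments, and the S one of these is the end peak described above. At this distance from the tRNA gene tet3.L thus had a peak of like coverage, but its annotated end lies 17.3 kb farther out.

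A peak also overlapped the tRNA gene itself in both copies, with 10.5-fold enrichment and 19 fragments (11.4 to 29.7) in tet3.L and 3.61-fold enrichment and 5 fragments (1.62 to 11.7) in tet3.S. Per the study's methods, peaks over tRNA genes of the Xenbase annotation were removed as probable false positives. Whether the peaks over the tRNA gene described here are of that kind was not tested. In the list as deposited 317 peaks overlap a tRNA gene of the RefSeq table, which holds 2612 on the chromosomes.

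On the side away from dusp11 the called peaks of the copies differed nearer the tRNA gene. tet3.L had further peaks 1546, 5294, 7096 and 11518 bp from the tRNA gene. They had 8 (3.45 to 15.8), 13 (6.92 to 22.2), 13 (6.92 to 22.2) and 7 (2.81 to 14.4) fragments. tet3.S had none on that side for the rest of the gene, and the stretch without a peak ran for 71.2 kb, as far as bola3.S. Summits under 5 fragments were not called, so the copies are not shown to differ in accessibility there. Beyond its own peaks tet3.L also had a long stretch without a peak on that side, of 89.2 kb, as far as mob1a.L. Of all distances between adjacent summits, 18.6% were at least as long as the stretch at S and 15.3% as that at L. Within 12 kb of the tRNA gene, a span chosen after seeing the data, there were 9 peaks at L and 5 at S. Their summit fragments added up to 132 at L and 49 at S. These sums hold called summits only, among them those over the tRNA gene, and places without a called peak add nothing to them.

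**Figure D4:**
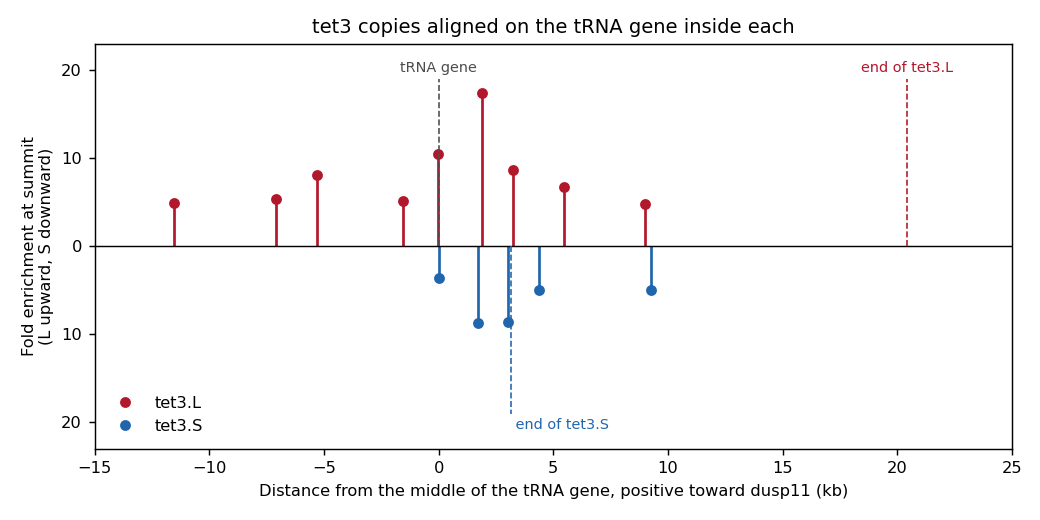
Peaks of tet3.L (upward, red) and tet3.S (downward, blue) as fold enrichment against distance in kb from the tRNA gene inside each copy, positive towards dusp11, with dashed lines at the annotated gene ends. Some peaks stand at similar distances on the right. The end of tet3.L lies 20.4 kb away and that of tet3.S 3.17 kb, and peaks on the left are those of tet3.L.

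Counted over the whole window, tet3 had 16 peaks at L and 8 at S, and 7.01% of the 7759 homeolog pairs had a gap of at least 8. The neighbours add to this gap. The 7 peaks of the tet3.L window that lay outside the gene included those at the end of mob1a.L, which encodes an activator of Hippo pathway kinases, where the stronger had 17.0-fold enrichment and 27 fragments (17.8 to 39.3) and lay 42312 bp from tet3.L. They also included the peaks of dusp11.L, whose far end is 20.5 kb from tet3.L. The far end of dusp11.S is 51.7 kb from tet3.S, and its peaks fall outside the window, the nearest at 51.2 kb with 6.31-fold enrichment and 12 fragments. Counting only peaks nearest to tet3 left 9 at L and 5 at S.

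tet2, which encodes a dioxygenase that lacks the CXXC domain, was nearly without peaks. tet2.L (gene 108710731) lies at 1L:76975384 to 77015518 and had 0 peaks inside or within 50 kb, which was the case for 15.0% of protein-coding genes. tet2.S (gene 108706731) lies at 1S:61268262 to 61317270 and had 1 peak, at 1S:61306545 to 61306649, which lay 10645 bp inside the end at the higher coordinate. It had 5.22-fold enrichment and 8 fragments (3.45 to 15.8), which is below the median of the list. As called peaks began at 5 fragments, the copies of tet2 are not shown to differ, and 27.4% of homeolog pairs had an end peak at neither copy.

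The nearest peaks lay just beyond the limit of 50 kb on 1 side. They were at ppa1, which encodes a pyrophosphatase, 56.4 kb from tet2.L and 54.5 kb from tet2.S. At ppa1.L the summit was 44 bp inside an end of that gene with 9.14-fold enrichment and 15 fragments, and at ppa1.S it was 142 bp inside with 8.40-fold enrichment and 14 fragments. The closest neighbour of both tet2 copies thus had a peak of like strength at its far end in L and in S.

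On the other side the stretch without a peak was long. From ppa1.L to the next summit, inside tacr3.L, 654 kb of chromosome 1L held no peak, and only 0.442% of the distances between adjacent summits were as long or longer, against a median of 8.81 kb. This stretch holds 3 whole protein-coding genes, which are tet2.L, cxxc4.L and the uncharacterised LOC121401185. cxxc4, a neighbour of tet2 in many vertebrates, encodes a CXXC protein that binds unmethylated CpG and is known in mammals to lower TET2 protein. Around tet2.S the peak inside the gene was followed by 148 kb without a peak, a length that 8.61% of distances reach. Both shares count distances and not genes, and a long stretch covers more of the genome than a short one. They therefore understate how often a gene lies in such a stretch. How well reads can be placed in these stretches was not tested.

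The wider pathway of DNA methylation was described with a list of 51 gene names that holds partners, readers and repair enzymes but none of the members. Of these names, 45 had a copy in the table, with 71 copies in all. An end peak was found at 60 of the 71 (84.5%), against 47.8% of all protein-coding genes, and the median copy had 4 peaks in its window, against 3. The background includes uncharacterised genes, whereas the list holds only named genes of known function. The share among named genes alone was not computed, so how much of the excess belongs to the pathway is not known. Both copies had an end peak in 22 of 26 homeolog pairs, against 52.9% of all pairs. At least 52.9% of L copies and of S copies in all pairs thus had an end peak. The 47.8% of all protein-coding genes is therefore a low background for the paired copies of the list.

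By role, all 5 copies of dioxygenase cofactor and partner genes and all 6 of methyl donor supply and protection had an end peak. Among partners of maintenance it was 15 of 17 copies, among readers of methylated DNA 13 of 15, among readers of unmethylated CpG 4 of 5 and among removal and repair genes 17 of 23. Among the copies with most peaks was mbd1.L, which encodes a reader of methylated DNA, with 33 in its window, against 6 at mbd1.S. The DNA glycosylase gene neil2.L had 18, and gadd45g.L, of a stress-induced family linked to demethylation, had 15. The reader gene mbd5.L had 13, and kdm2b.L, listed among readers of unmethylated CpG, had 12. These counts describe neighbourhoods, and within 10 kb there were fewer peaks. There were 11 at mbd1.L, 2 at mbd1.S and 3 at neil2.L, and 12 at gadd45g.L, 7 at mbd5.L and 10 at kdm2b.L.

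**Figure D5:**
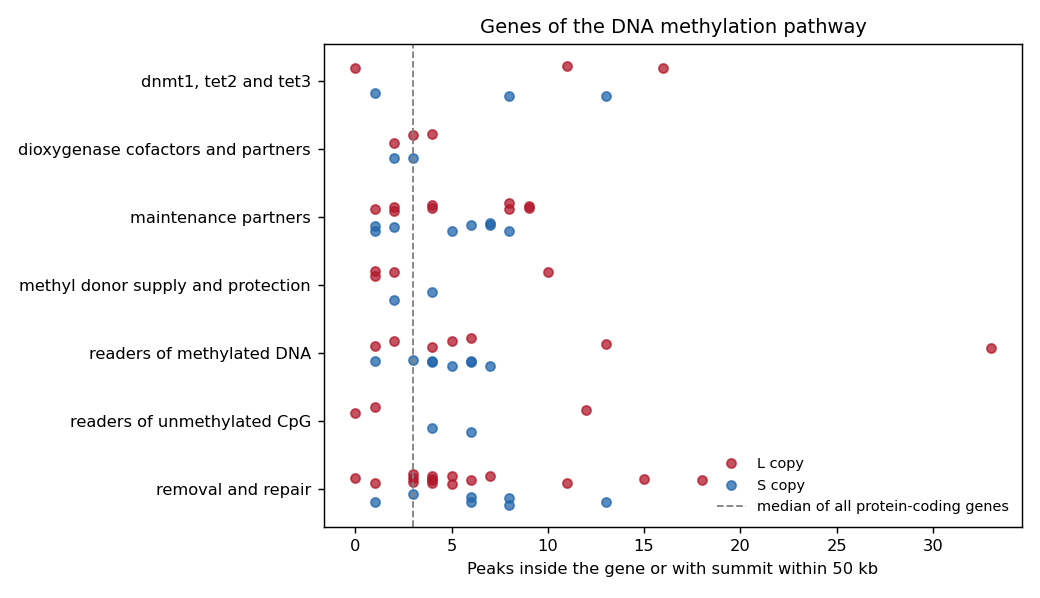
Peaks inside the gene or within 50 kb (horizontal axis) for each L copy (red) and S copy (blue) of dnmt1, tet2 and tet3 and of the other pathway genes by role, with the median of all protein-coding genes dashed at 3. The 33 peaks of mbd1.L are the most, and tet3.L with 16 and dnmt1.S with 13 are above most copies of the other groups.

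Of the 26 pairs, only gadd45b had an end peak at 1 copy alone, with 2 at gadd45b.L and 0 at gadd45b.S. Pairs with an end peak at neither copy numbered 3 of 26, against 27.4% of all pairs. They included zbtb38 and uhrf1, which were singled out after their values were seen. uhrf1 encodes the partner that brings DNMT1 to newly replicated DNA, and it had 1 peak in the window of uhrf1.L and 2 in that of uhrf1.S, the strongest of 5.74-fold enrichment. The windows of dnmt1 held 11 and 13 peaks, of which 8 and 6 were nearest to dnmt1, and both copies had an end peak. Among all copies of maintenance partner genes 15 of 17 had an end peak, and the exceptions were the copies of uhrf1. The annotated length is 70706 bp at uhrf1.L and 151492 bp at uhrf1.S, and whether their annotated ends correspond was not tested.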

How the data were processed

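Read pairs were aligned by the authors to the *X. laevis* v10.1 genome (Bowtie2 2.4.2, mapping quality of at least 30), as the methods and the submitters' processing notes state. Stage 9 libraries were pooled, fragments of sub-nucleosomal size were kept, and MACS2 2.2.7.1 called peaks with no-antibody CUT&RUN samples as the control. The notes also list bedtools 2.30.0. The mapping filter removes reads that match L and S equally well. Libraries were amplified for 12 cycles without molecular identifiers.

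The deposited list gives for each peak a fold enrichment (a ratio with a pseudocount), the −log10 of the p-value and of the q-value, a score made from the q-value, and the summit. From fold enrichment and p-value the whole number of fragments at each summit was recovered within a relative tolerance of 0.0001. In 410 of 58215 summits more than 1 number was possible and the larger was taken, which touched no member peak. Scripts were checked on simulated data with known answers.

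Gene positions came from the RefSeq table of the same assembly, without strand or exons. No sequence was used here, so planned sequence features were not computed. Analyses used Python 3.11.15, pandas 2.3.3 and scipy 1.17.1. Each copy was described by its peaks and set beside all protein-coding genes, with no test. Named were the members, their strongest and end peaks with neighbours, and of the pathway list the 6 copies with most peaks and the pairs with an end peak at 1 copy, of which 1 copy is not reported here. Members and lists were chosen with earlier results of these data known. Alternatives were other windows, stricter peaks and nearest-gene counts.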

Additional observations from a re-analysis of the deposited data

How the results depend on the processing

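The 3 copies with an end peak stayed 3 in number under each of the 5 alternatives tried, which were windows of 500 bp and 2 kb, a −log10 q of at least 10, fold enrichment at or above the median, and any overlap. The 49 peaks of the members were 22 inside the genes only, 12 with a −log10 q of at least 10, 22 with fold enrichment at or above the median and 29 when the member had to be the nearest protein-coding gene. Copies of the other pathway genes with an end peak were 35 of 71 with a −log10 q of at least 10, against 60 of 71. The share of all protein-coding genes with an end peak was not computed at that limit. The counts at that limit, for members and pathway copies, thus have no background beside them. For dnmt1, L minus S was 1 with a −log10 q of at least 10 and 2 with nearest genes only, instead of -2. For tet2 it was 0 instead of -1 with a −log10 q of at least 10 and with fold enrichment at or above the median. For tet3 it kept its sign in all 6 alternatives, with 16 and 8 peaks at L and S, and was 1 with a −log10 q of at least 10 and 4 within 12 kb of the tRNA gene, an alternative chosen after seeing the data. No paired analysis was possible because the list pools all stage 9 replicates, and replicates could not be left out for the same reason. Depth limits what is absent: summits under 5 fragments were not called.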
